A study of Mus musculus with 4 samples.

Results

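The genes described here mark the B lymphocyte lineage from precursor to mature stages. The list holds 51 genes chosen by name, of which 49 were measured among the 19938 genes with a probe set of their own, and Lyn and Cd38 were not analysed here. They were read in bone marrow cells of C57BL/6N mice taken 8 h after 1 intraperitoneal injection. Mice of the LPS group (2 arrays, replicates 1 and 2) received 50 µg lipopolysaccharide, a bacterial outer membrane glycolipid mixed in equal parts from E. coli K12 and S. minnesota. Mice of the PBS group (2 arrays, replicates 1 and 3) received phosphate-buffered saline. The labels do not say whether a replicate is 1 mouse or a pool, nor give age or sex, so the spread between arrays of a group may be partly technical.

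B lymphocytes are made in the marrow. Early precursors rearrange their immunoglobulin heavy chain genes with the recombinase made by Rag1 and Rag2, while Dntt adds bases at the joints. A heavy chain is then tested on the surface with the surrogate light chain, encoded by Igll1, Vpreb1 and Vpreb2. This takes place under growth signals from interleukin-7 through Il7r. The factors Ebf1 and Pax5 commit cells to the lineage and keep genes such as Cd79a on. Mature cells carry the B-cell receptor with inhibitory and co-receptor molecules such as Cd22 and Cd72, and plasma cells, which secrete antibody, need Prdm1 and Xbp1.

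The measured genes were set in 5 groups by textbook stage: 12 precursor genes, 16 pan B-lineage genes, 13 later B-cell genes, 3 plasma cell genes and 5 with no stage given. Values are log2 expression values, so a difference of 1 is a doubling, and differences are LPS minus PBS. A gene passed the test when its limma adjusted p over all 19938 genes was under 0.05. A lower value in whole marrow can come from fewer cells of a type or from less RNA per cell, and these cannot be told apart in bulk samples. The median over genes was between 8.01 and 8.03 on the 4 arrays. As markers of marrow, 12 neutrophil and 7 erythroid genes were measured, and 0 of either list had a mean level under the lower quartile of genes. Among the B-lineage genes, 1 did, Cd55b, which had means of 6.52 ± 0.07 in LPS arrays and 6.75 ± 0.14 in PBS arrays (SD, n = 2 each).

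The upstream windows of the gene that passed the test, Dntt, and of the 3 surrogate light chain genes on chromosome 16 are shown to place these neighbours and near-copies beside their values. Each runs from 250 bases before the start used in the promoter table to 30 bases after it, 5′ to 3′ on the gene's strand, from RefSeq in build GRCm38.p6. Dntt lies at chr19:41029025-41029304 (plus strand), Igll1 at chr16:16863956-16864235 (minus strand), Vpreb1 at chr16:16869226-16869505 (minus strand) and Vpreb2 at chr16:17980315-17980594 (plus strand). Capitals mark matches to CCCNNGGG, which reads the same on both strands and is a core of Ebf1 sites, and to CAGGTG on either strand (CACCTG on the other), an E-box read by E proteins such as Tcf3.
Dntt: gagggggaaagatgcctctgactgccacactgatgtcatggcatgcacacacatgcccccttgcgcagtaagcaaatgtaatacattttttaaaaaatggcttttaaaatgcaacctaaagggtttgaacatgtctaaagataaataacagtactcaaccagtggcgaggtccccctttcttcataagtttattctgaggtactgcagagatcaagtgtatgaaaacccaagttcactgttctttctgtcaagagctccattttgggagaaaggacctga
Igll1: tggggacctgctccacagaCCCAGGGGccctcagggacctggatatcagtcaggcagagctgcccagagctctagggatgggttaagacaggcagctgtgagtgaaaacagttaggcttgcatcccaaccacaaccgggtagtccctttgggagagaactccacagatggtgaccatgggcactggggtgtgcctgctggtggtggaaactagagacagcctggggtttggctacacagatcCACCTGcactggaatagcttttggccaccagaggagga
Vpreb1: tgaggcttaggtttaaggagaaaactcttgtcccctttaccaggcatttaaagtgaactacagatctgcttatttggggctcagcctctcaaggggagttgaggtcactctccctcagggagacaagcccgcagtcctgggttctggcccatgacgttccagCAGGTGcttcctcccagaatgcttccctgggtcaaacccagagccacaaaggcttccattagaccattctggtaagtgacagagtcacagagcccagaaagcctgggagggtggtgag
Vpreb2: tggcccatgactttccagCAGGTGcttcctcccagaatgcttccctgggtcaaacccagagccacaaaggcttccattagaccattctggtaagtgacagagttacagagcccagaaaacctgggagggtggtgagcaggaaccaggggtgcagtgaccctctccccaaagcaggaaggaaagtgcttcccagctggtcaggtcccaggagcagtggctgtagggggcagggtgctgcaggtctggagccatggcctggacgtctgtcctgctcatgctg
The Igll1 window held both motifs, the Vpreb1 and Vpreb2 windows held the E-box, and the Dntt window held neither. The E-box was found in 5 of the 12 precursor genes with a window and in 19.1% of all 32851 windows, and CCCNNGGG in 2 of the 12 and in 13.0% of all windows. A gene counted when any of its windows matched, while the shares are per window, so the units are unlike. When the Vpreb2 window was laid on the Vpreb1 window with a shift of 144 bases, 133 of 136 overlapping bases were identical (97.8%). The start used for Vpreb2 is not the 5′ end of its annotated gene, which begins upstream at position 17979445 and ends at 17981274, so the shift depends on the start chosen. The array's probe sets for Vpreb1 and Vpreb2 may share signal.

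Genes of the precursor stage were lower after LPS on both arrays in part of the group. Dntt, the terminal transferase, fell to log2 values of 8.83 and 8.71 in LPS replicates 1 and 2, against 9.29 and 9.35 in PBS replicates 1 and 3. Both LPS arrays thus lay below both PBS arrays, by more than either group's spread. The means were 8.77 ± 0.08 in LPS and 9.32 ± 0.04 in PBS (SD, n = 2 each). The difference was -0.55 (SE 0.0918, 95% interval -0.76 to -0.34), 0.683 of the PBS level, with a limma adjusted p of 0.0184. It was the 1 gene of the 49 that passed in the lower direction, against 1.27% of all genes, and 0 passed in the higher direction, against 2.39% of all genes. The call was lost without LPS replicate 2 (difference -0.49, limma adjusted p = 0.0946), with every probe set in the fit (0.087) and in a linear model without moderated variances (0.368). With 1 array left out, the lower members past the threshold were Dntt and Lef1 without LPS replicate 1, Rag2 and Bank1 without LPS replicate 2, Dntt, Igll1, Rag2 and Bank1 without PBS replicate 1, and Dntt without PBS replicate 3. The shares of all genes called lower were then 1.17%, 0.637%, 1.92% and 2.12%. At an unadjusted limma p under 0.05, 10 of the 49 were lower and 2 higher, against 8.69% and 7.11% of all genes.

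Igll1, which encodes the lambda5 part of the surrogate light chain, had a difference close to that of Dntt. Its log2 values were 11.12 and 11.08 in LPS replicates 1 and 2, against 11.47 and 11.81 in PBS replicates 1 and 3. The LPS arrays were nearly equal and the PBS arrays stood 0.34 apart. The difference of -0.54 (SE 0.122) had a limma adjusted p of 0.0611. It was -0.71 without PBS replicate 1 and -0.37 without PBS replicate 3. Rag2, a subunit of the recombinase, had log2 values of 7.54 and 7.84 in LPS replicates 1 and 2, and 8.17 and 8.26 in PBS replicates 1 and 3. Here too the groups did not overlap, although the LPS arrays differed by 0.29. The difference of -0.52 (SE 0.117) had a limma adjusted p of 0.0586. It was -0.67 without LPS replicate 2 and -0.38 without LPS replicate 1.

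The recombinase partners did not show the same order of arrays. Rag1 had log2 values of 8.89 and 9.31 in LPS replicates 1 and 2, against 9.45 and 9.22 in PBS replicates 1 and 3. LPS replicate 2 lay between the PBS arrays, and the difference was -0.23 (95% interval -0.58 to 0.12, limma adjusted p = 0.542). The surrogate light chain genes were likewise split. Vpreb1 had 7.56 and 7.67 in LPS arrays and 7.89 and 7.94 in PBS arrays, with no overlap, a difference of -0.30 and a limma adjusted p of 0.152. Vpreb2, the near-copy whose window is printed above, had 8.46 and 8.62 in LPS arrays and 8.59 and 8.52 in PBS arrays. Its groups overlapped, and its difference was -0.01 (95% interval -0.24 to 0.21). The related gene Vpreb3 had 11.48 and 11.97 in LPS replicates 1 and 2, against 11.88 on both PBS arrays. LPS replicate 1 was the low array here and LPS replicate 2 the highest of the 4.

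Of the transcription factors in the precursor group, Lef1, a Wnt pathway factor of early B and T cells, had log2 values of 9.01 and 8.75 in LPS replicates 1 and 2, against 9.37 and 9.26 in PBS replicates 1 and 3. Both LPS arrays were lower, LPS replicate 2 more so, with a difference of -0.44 (SE 0.113, limma adjusted p = 0.0956). This difference was -0.57 without LPS replicate 1 and -0.31 without LPS replicate 2. Myb, a factor of immature blood cells of several lineages, had 11.29 and 11.39 in LPS arrays and 11.62 and 11.61 in PBS arrays. Its difference of -0.27 was larger than the gap between arrays of either group, with a limma adjusted p of 0.185. Erg, a factor of stem cells, early B cells and endothelium, had 9.69 and 9.38 in LPS replicates 1 and 2, and 9.80 and 9.70 in PBS replicates 1 and 3. LPS replicate 1 was close to PBS replicate 3, and LPS replicate 2 was the low array. Sox4, a factor needed by early B-cell precursors, and Il7r had differences of -0.07 and -0.04, with overlapping groups.

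**Figure D1:**
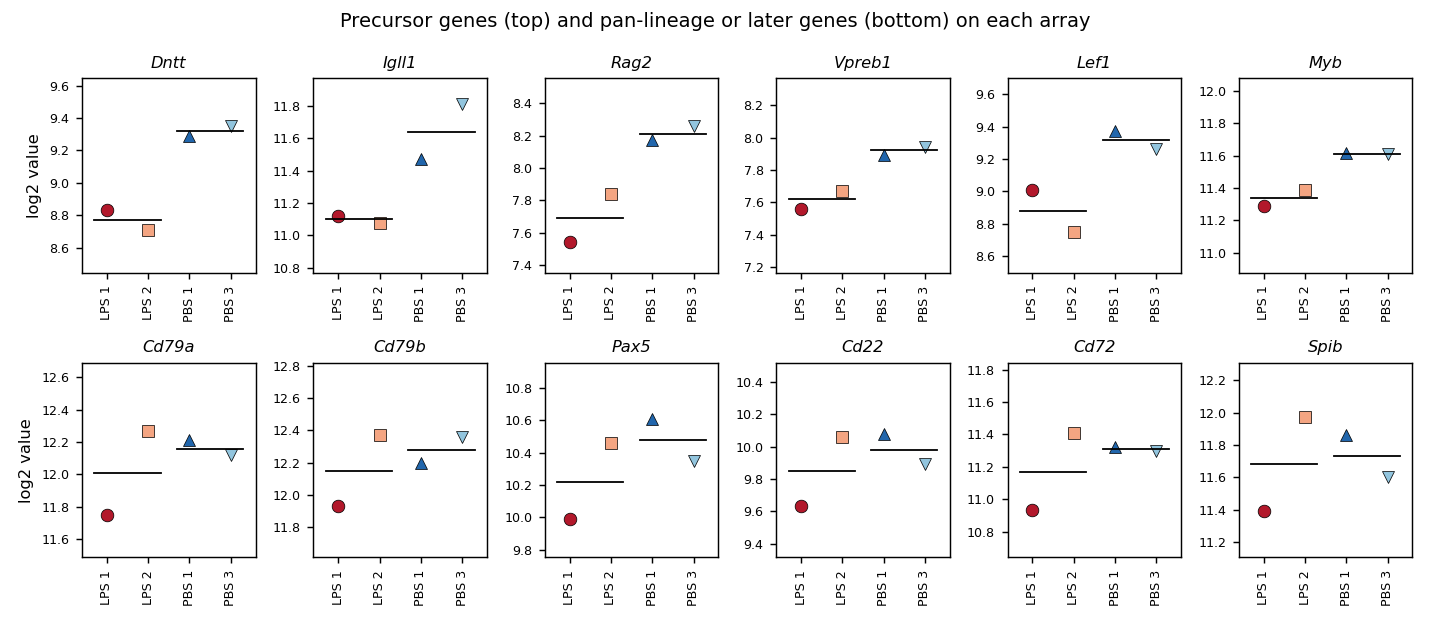
Log2 value (y axis, each panel spanning 1.2 log2 units around the gene's mean) of 6 precursor genes (top) and 6 pan-lineage or later genes (bottom) on LPS replicates 1 and 2 and PBS replicates 1 and 3, with lines at the group means. Both LPS arrays lie below both PBS arrays in the top panels, while in the bottom panels LPS replicate 1 is the lowest array and LPS replicate 2 lies within or above the PBS arrays. The panels are picked examples and do not stand for their lists. Both LPS arrays lay below both PBS arrays in 7 of 12 precursor, 7 of 16 pan B-lineage and 2 of 13 later genes, and in 24.5% of all genes.

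All 16 pan B-lineage genes had LPS replicate 1 below both PBS arrays, against 38.6% of all genes. LPS replicate 2 lay below both PBS arrays in 7 of the 16, against 36.4% of all genes. Cd79a, a signalling chain of the B-cell receptor, had log2 values of 11.75 and 12.27 in LPS replicates 1 and 2, against 12.21 and 12.12 in PBS replicates 1 and 3. LPS replicate 1 was the lowest array and LPS replicate 2 the highest, so the difference of -0.15 (95% interval -0.52 to 0.22) stood within the spread of the LPS arrays. Cd79b, its partner chain, had 11.93 and 12.37 in LPS arrays and 12.20 and 12.36 in PBS arrays. The commitment factor Pax5 had 9.99 and 10.46 in LPS replicates 1 and 2, and 10.61 and 10.35 in PBS replicates 1 and 3. In both of these genes, LPS replicate 1 was again the lowest array of the 4.

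Ebf1, the pioneer factor of the lineage, differed from Pax5 in that both LPS arrays were below both PBS arrays. Its log2 values were 10.88 and 11.22 in LPS replicates 1 and 2, against 11.36 and 11.39 in PBS replicates 1 and 3. The difference of -0.32 (SE 0.123) had a limma adjusted p of 0.256. Among the other regulators, Ikzf3 (-0.22), Foxo1 (-0.21), which drives Rag transcription, Bcl11a (-0.16), Pou2af1 (-0.16), a coactivator of octamer-binding factors, Bach2 (-0.13), a repressor that holds back plasma cell fate, and Ikzf1 (-0.13) did not pass. Only Ikzf1 of these 6 had groups that did not overlap, with both LPS arrays lower, against 24.5% of all genes in that order.

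The signalling genes Blnk (-0.25), an adaptor below the receptor, and the kinase genes Blk (-0.24), Btk (-0.22) and Syk (-0.02) did not pass either. Btk, which myeloid cells also express, had log2 values of 9.92 and 9.98 in LPS arrays and 10.21 and 10.13 in PBS arrays. In contrast to Cd79a, its LPS arrays were alike and both below the PBS arrays. Blk had 9.38 and 9.81 in LPS replicates 1 and 2, and 9.83 on both PBS arrays, so that its LPS replicate 2 was within 0.02 of the PBS mean. Of the broadly expressed surface genes, Cd24a, also of erythroid cells and granulocytes, had a difference of -0.15 and Ptprc, the leukocyte antigen CD45, one of -0.07.

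Later B-cell genes had a similar gap between the LPS arrays, with a median of 0.31 (LPS replicate 2 minus replicate 1), against 0.32 in pan B-lineage genes, 0.11 in precursor genes and 0.00 over all genes. Cd22, an inhibitory receptor that binds sialic acid, had log2 values of 9.63 and 10.06 in LPS replicates 1 and 2, against 10.08 and 9.89 in PBS replicates 1 and 3. Cd72, another inhibitory receptor, had 10.93 and 11.41 in LPS arrays and 11.32 and 11.30 in PBS arrays. In both, LPS replicate 1 was below all other arrays by more than the PBS arrays differed, and LPS replicate 2 was not. Spib, an Ets factor of B cells and plasmacytoid dendritic cells, had 11.39 and 11.97 in LPS replicates 1 and 2, and 11.86 and 11.60 in PBS replicates 1 and 3. Its LPS arrays bracketed both PBS arrays, 0.58 apart.

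Bank1, a scaffold protein of B-cell receptor signalling, was the later gene with the lowest difference. It had log2 values of 9.84 and 10.15 in LPS replicates 1 and 2, against 10.39 and 10.64 in PBS replicates 1 and 3. Both LPS arrays were below both PBS arrays, with a difference of -0.52 (SE 0.133, limma adjusted p = 0.0924). The difference was -0.67 without LPS replicate 2 and -0.37 without LPS replicate 1. Ralgps2, an exchange factor for Ral GTPases, had 9.42 and 9.64 in LPS arrays and 9.89 and 9.77 in PBS arrays, a difference of -0.30. These were the 2 later genes of 13 whose groups did not overlap in the lower direction, against 24.5% of all genes.

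The remaining later genes did not pass. Fcmr, the IgM Fc receptor (formerly Faim3), had 9.82 and 10.32 in LPS replicates 1 and 2, against 10.50 and 10.31 in PBS replicates 1 and 3, a difference of -0.33. Fcrla (-0.24), Cd2 (-0.22), Cd37 (-0.22), Fcrl1 (-0.09) and Bcl6 (-0.08), a factor of germinal centre B cells, overlapped between groups. In the other direction, Fcrl5, an Fc receptor-like protein of innate-like B cells, had 7.07 and 7.30 in LPS arrays and 6.94 and 7.06 in PBS arrays, with a difference of 0.19. Pou2f2, the octamer-binding factor Oct-2, had 8.88 and 9.14 in LPS replicates 1 and 2, and 8.90 and 8.57 in PBS replicates 1 and 3, with a difference of 0.27 and overlapping groups (limma adjusted p = 0.403).

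**Figure D2:**
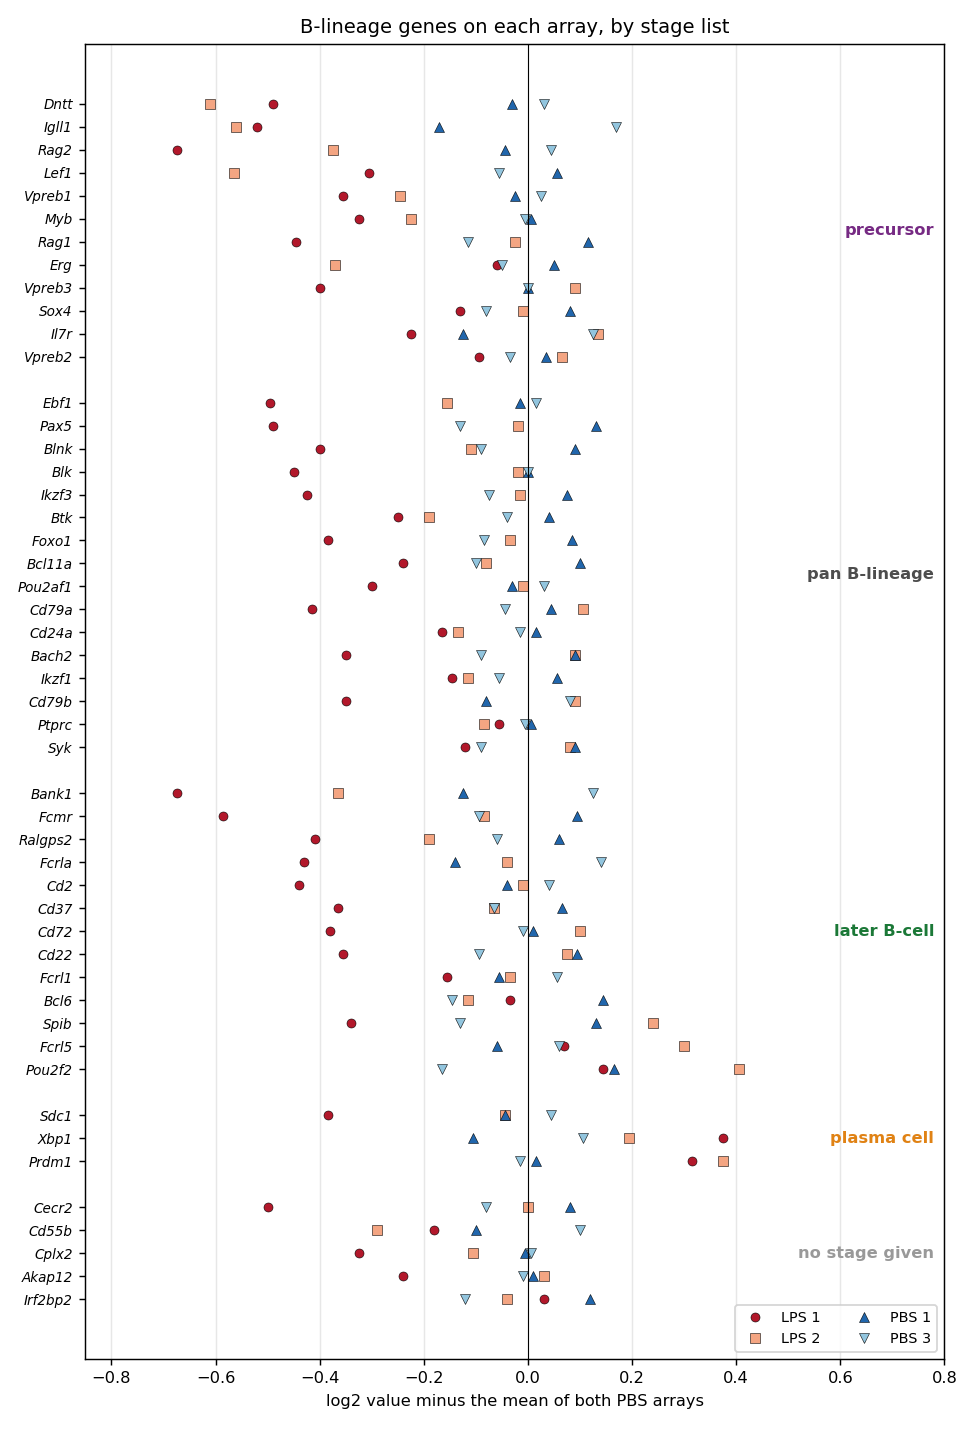
Log2 value minus the mean of both PBS arrays (x axis) for each of the 49 genes (rows, by stage list and ordered by difference) on the 4 arrays. LPS replicate 1 (dark circles) lies left of both PBS arrays in 43 genes, against 38.6% of all genes. LPS replicate 2 (light squares) does so in 19, near the share of 36.4% of all genes.

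Plasma cell genes went 2 ways. Prdm1, which encodes the repressor Blimp-1, had log2 values of 7.81 and 7.87 in LPS replicates 1 and 2, against 7.51 and 7.48 in PBS replicates 1 and 3. The arrays of each group were close and the groups did not overlap. The difference of 0.35 (SE 0.0872, 95% interval 0.14 to 0.55) had a limma adjusted p of 0.089. Xbp1, a factor of secretory cells and of the unfolded protein response in many cell types, had 11.65 and 11.47 in LPS arrays and 11.17 and 11.38 in PBS arrays, a difference of 0.29 (limma adjusted p = 0.253). Sdc1, the plasma cell surface proteoglycan CD138, had 8.07 and 8.41 in LPS replicates 1 and 2, and 8.41 and 8.50 in PBS replicates 1 and 3, a difference of -0.22. LPS replicate 1 was the low array, and LPS replicate 2 equalled PBS replicate 1 to 2 decimals.

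Of the genes with no stage given, Cecr2, a chromatin remodelling factor, had 10.05 and 10.55 in LPS replicates 1 and 2, against 10.63 and 10.47 in PBS replicates 1 and 3. It followed the pattern of the later genes, with LPS replicate 1 alone below the rest. Cplx2, a complexin that regulates vesicle fusion, and Cd55b, a complement regulator, had differences of -0.22 and -0.23 with groups that did not overlap. Akap12, an anchoring protein for protein kinase A, had a difference of -0.11 and the corepressor gene Irf2bp2 one of -0.01.

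**Figure D3:**
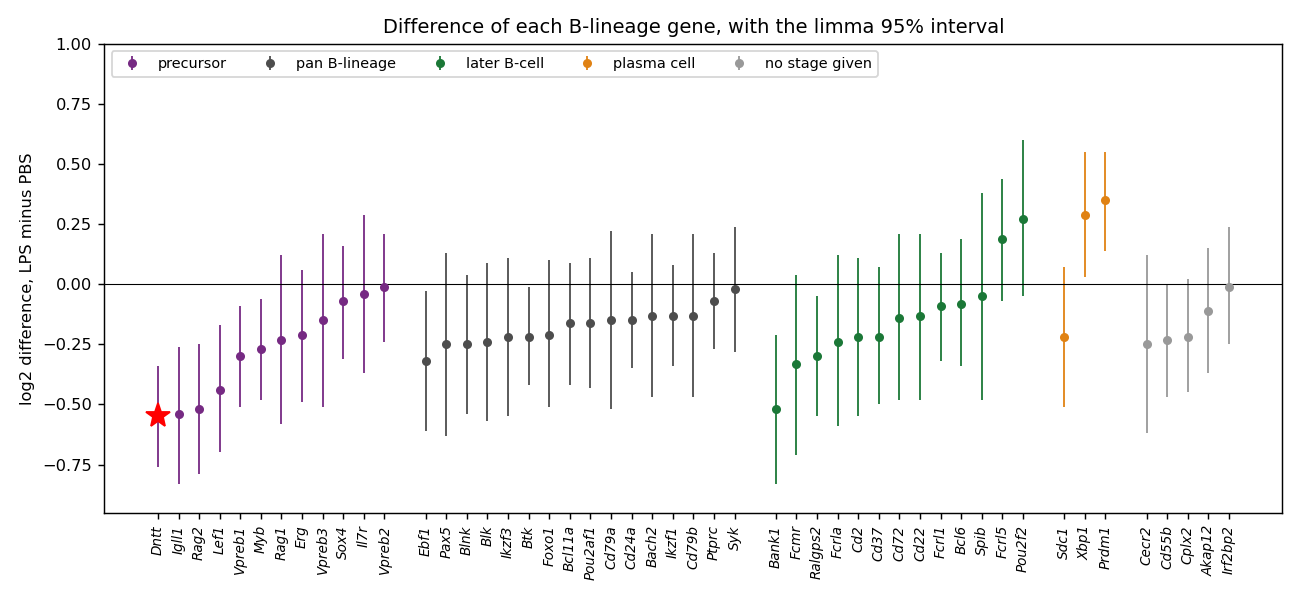
Log2 difference, LPS minus PBS (y axis), of each of the 49 genes with its limma 95% interval, in the order of the stage lists. The star marks Dntt (-0.55), the gene past an adjusted p of 0.05, and the plasma cell genes Prdm1 (0.35) and Xbp1 (0.29) lie highest.

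Set side by side, the precursor, pan B-lineage and later lists had medians below 0 and the plasma cell list one above 0. The median difference was -0.25 for precursor genes, -0.16 for pan B-lineage genes, -0.14 for later genes, 0.29 for the 3 plasma cell genes and -0.01 over all 19938 genes. All 12 precursor genes and all 16 pan B-lineage genes had a difference below 0, as did 11 of 13 later genes, against 52.5% of all genes. Both LPS arrays lay below both PBS arrays in 7 of 12 precursor, 7 of 16 pan B-lineage and 2 of 13 later genes, against 24.5% of all genes. In the higher direction these counts were 0, 0 and 1, and 2 of 3 for plasma cell genes, against 20.4% of all genes. Markers of other cells, described below, also had both LPS arrays lower in part. These were 7 of 11 T-cell, 7 of 12 neutrophil, 5 of 7 erythroid and 4 of 8 monocyte and macrophage markers. Counts were 3 of 7 for stem and progenitor, 2 of 8 for natural killer and 1 of 7 for plasmacytoid dendritic cell markers. Whether the shares differ between the stage lists was not tested, since genes are not replicates.

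Each LPS array was also set against the PBS arrays on its own in the precursor, pan B-lineage and later lists. LPS replicate 1 lay below both PBS arrays in 12 of 12 precursor, 16 of 16 pan B-lineage and 10 of 13 later genes, against 38.6% of all genes. LPS replicate 2 did so in 7, 7 and 2 of these genes, against 36.4% of all genes. Relative to the PBS mean, the median gene of LPS replicate 1 stood at -0.34, -0.34 and -0.37 in the precursor, pan B-lineage and later lists. That of LPS replicate 2 stood at -0.24, -0.03 and -0.03. Both sets of values share the same PBS arrays. LPS replicate 1 was below LPS replicate 2 in 40 of the 49 genes, against 49.7% of all genes, and the 9 others included Dntt, Igll1, Lef1 and Erg of the precursor list.

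Precursor genes were then set against later genes on each array, as the median deviation of the precursor list from each gene's mean minus that of the later list. This was 0.08 and -0.17 on LPS replicates 1 and 2, against 0.00 and 0.08 on PBS replicates 1 and 3. The LPS arrays lay on either side of PBS replicate 1, and the difference between groups was -0.08. An exact permutation test over the 4 arrays gave a two-sided p of 1.0, but 2 arrays against 2 cannot give less than 0.333, so it could not pass whatever the values. Without LPS replicate 1 the difference was -0.22. These values describe the 4 arrays and do not settle whether the stages differ.

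**Figure D4:**
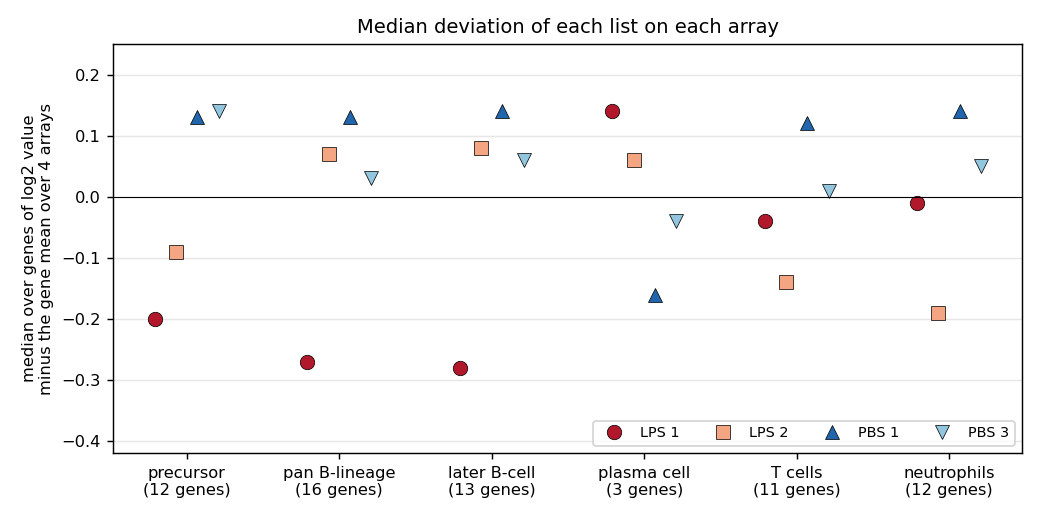
Median over the genes of a list of the log2 value minus the gene's mean over the 4 arrays (y axis), for 4 B-lineage lists, T-cell markers and neutrophil markers (x axis). In precursor genes both LPS arrays lie below both PBS arrays (-0.20 and -0.09, against 0.13 and 0.14), while in later genes LPS replicate 1 stands at -0.28 and LPS replicate 2 at 0.08. Both LPS arrays also lie below both PBS arrays in T-cell markers (-0.04 and -0.14, against 0.12 and 0.01) and neutrophil markers (-0.01 and -0.19, against 0.14 and 0.05).

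Markers of other marrow cells were read on the same arrays, since several of these genes are also used outside the B lineage. T-cell markers, which bear on Lef1, Il7r and Cd2, had a median difference of -0.15. Of 11 measured, 7 were lower on both LPS arrays, against 24.5% of all genes. In the lower direction 1 passed, Cd8b1 (-0.52), against 1.27% of all genes. Their summed linear signal was 3408 and 3072 in LPS replicates 1 and 2, against 3785 and 3727 in PBS replicates 1 and 3. On this list LPS replicate 2 was the lower array by its sum, as it was for Lef1, while LPS replicate 1 was the lower array for Il7r and Cd2. Stem and progenitor markers, which bear on Myb, Erg and Sox4, had a median difference of -0.14 with 0 of 7 past the threshold, and summed to 3347 and 3116 in LPS arrays and 3281 and 3391 in PBS arrays.

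Neutrophil markers, a check on the balance of lineages, had a median difference of -0.17 with 0 of 12 past the threshold. Their summed linear signal was 82162 and 74717 in LPS replicates 1 and 2, against 89646 and 85959 in PBS replicates 1 and 3. LPS replicate 1 was above LPS replicate 2 in all 12 of these genes, the reverse of the order in later B-cell genes. The summed signal of the 13 later genes was 14324 and 18804 in LPS replicates 1 and 2, and 19064 and 18116 in PBS replicates 1 and 3. Erythroid markers summed to 30866 and 32036 in LPS arrays, against 35488 and 33359 in PBS arrays, with 0 of 7 past the threshold. The part of these lists in the B-lineage values was not tested.

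Plasmacytoid dendritic cell markers, which bear on Spib and Bcl11a, summed to 7449 and 7159 in LPS arrays, against 6023 and 6046 in PBS arrays. Of 7 measured, 1 passed, Bst2, which interferon also induces in other cells. It had log2 values of 10.74 and 10.75 in LPS arrays, against 9.12 and 9.17 in PBS arrays, and made up most of the gap in the sums. The list's median difference was 0.10, and its defining marker Siglech had 9.55 and 9.26 in LPS arrays, against 9.65 and 9.80 in PBS arrays (difference -0.31). Tcf4 and Cd300c had differences of -0.01 and 0.00, and Ccr9, Irf8 and Pacsin1 had differences of 0.34, 0.12 and 0.10. Ccr9 had 9.07 and 8.80 in LPS arrays, against 8.47 and 8.71 in PBS arrays. Natural killer markers had a median difference of 0.04, with 2 of 8 past the threshold in the higher and 1 in the lower direction. Monocyte and macrophage markers had one of -0.21, with 1 of 8 past it in the higher and 3 in the lower direction. Over all genes, 2.39% passed in the higher and 1.27% in the lower direction.

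Genes of the same pathways outside the list were read from 4 further lists, in which 5 of 81 measured genes fell and 2 rose, against 1.27% and 2.39% of all genes. The rises were thus near the share over all genes. Without PBS replicate 3, 7 rose, against 3.49% of all genes. The fall in Fcer2a, the low-affinity IgE receptor of mature B cells, was the largest among them. It had 7.77 and 7.79 in LPS arrays, against 9.34 and 9.45 in PBS arrays, a difference of -1.61 (SE 0.0905, limma adjusted p = 6.96e-05). Its LPS arrays were equal within 0.02, unlike those of Ms4a1, the B-cell surface antigen CD20, which had 10.67 and 11.15 in LPS replicates 1 and 2, and 10.83 and 11.01 in PBS replicates 1 and 3 (difference -0.01).

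Cr2, the complement receptor of mature B cells, had 7.42 and 7.31 in LPS arrays and 7.99 and 8.25 in PBS arrays, a fall of the same kind on both LPS arrays (difference -0.75, limma adjusted p = 0.0105, and 0.0741 with every probe set in the fit). H2-Ob, a regulator of class II peptide loading, differed by -0.74 (limma adjusted p = 0.0231, 0.0501 without LPS replicate 1 and 0.125 with every probe set in the fit). Zbtb20, a zinc finger factor, differed by -0.49 (limma adjusted p = 0.0471). It did not pass without LPS replicate 1 (0.227), without PBS replicate 3 (0.0611) or with every probe set (0.164). The 2 later genes that rose were Cd40, the receptor for T-cell help, and Tlr9, a DNA sensor, both also expressed by myeloid and dendritic cells. Cd40 had 10.12 and 10.57 in LPS replicates 1 and 2, against 9.30 and 9.26 in PBS replicates 1 and 3 (difference 1.06, limma adjusted p = 0.00658, and 0.0649 with every probe set). Tlr9 differed by 0.68 (limma adjusted p = 0.0382, 0.111 without LPS replicate 2 and 0.165 with every probe set). On both genes the higher of the LPS arrays was replicate 2, as in 22 of the 25 genes of this later B-cell list. What this order reflects was not tested.

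In the precursor and interleukin-7 pathway list 1 of 25 genes passed, Il7 itself, the stromal growth factor of B-cell precursors. It had 5.86 and 5.61 in LPS replicates 1 and 2, against 6.21 and 6.55 in PBS replicates 1 and 3. Both LPS arrays were lower, and all 4 values lay under the lower quartile of genes on their arrays, where the size of a difference is least certain. The difference of -0.65 had a limma adjusted p of 0.0489. It did not pass without LPS replicate 2 (0.142), without PBS replicate 3 (0.0627) or with every probe set (0.189). In this list 12 of 25 genes had both LPS arrays below both PBS arrays and 4 had both above, against 24.5% and 20.4% of all genes.

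In the B-cell receptor signalling list 1 of 20 genes passed, Cr2, given above, and the median difference was -0.07. Plasma cell genes outside the list had a median difference of 0.14 with 0 of 11 past the threshold, and at an unadjusted limma p under 0.05 5 were higher and 2 lower, against 7.11% and 8.69% of all genes. In 6 of them the LPS arrays stood above both PBS arrays, and in 2 below, against 20.4% and 24.5% of all genes. The 2 below were Irf4 and Mzb1, with differences of -0.36 and -0.34. Highest in mean level in this list were the chaperone gene Hspa5 and the mannosidase-like gene Edem1, with differences of 0.36 and 0.03. Both serve protein folding in all secretory cells. Hspa5 had 12.76 and 12.63 in LPS arrays and 12.22 and 12.45 in PBS arrays. Its difference was 0.48 without PBS replicate 3 and 0.25 without PBS replicate 1.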

How the data were processed

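RNA of 4 bone marrow samples was measured on GeneChip Mouse Gene 1.0 ST arrays. The authors deposited 1 log2 value for each probe set and array, made with RMA, which corrects background, normalizes quantiles across arrays and summarises probes. RMA is the tool named per the submitters' processing notes. Its version is not given in the sources used here, and the log2 scale was read from the values, which ran from 2.76 to 14.52.

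Of 35556 probe sets, 21789 had exactly 1 gene symbol in the platform annotation. For 999 genes with several, the brightest stood for the gene, which left 19938 genes. Each B-lineage gene measured had 1 probe set. Faim3 was found under its current symbol Fcmr.

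LPS and PBS were compared in R 4.3.3 by limma 3.58.1 (functions lmFit and eBayes, all 4 arrays, no covariate, two-sided, Benjamini-Hochberg over all genes, threshold 0.05, prior degrees of freedom 5.59). The fit was tested on simulated data. The number of arrays limits the precision, with 2 residual degrees of freedom.

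The members and lists were chosen with earlier results of these data known, so lists are described by counts and medians. The exact permutation test of precursor minus later genes is over arrays, not genes, and could not reach the threshold. Named were all members, and of each outside list up to 4 genes per direction past the threshold, or the 2 with the highest mean where none passed, with Ms4a1 and Il7 in any case. Irf4 and Mzb1 were named besides this rule, as the plasma cell genes lower on both LPS arrays. Figures were drawn with matplotlib 3.10.9. Alternatives changed the probe set rule, the fitted features, a filter on low values, the variance moderation, the scaling, array weights, the threshold and the arrays included.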

Additional observations from a re-analysis of the deposited data

How the results depend on the processing

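No paired analysis was possible because the groups share only replicate number 1. The count of 1 lower member became 0 with every probe set in the fit and 3 with an intensity trend and robust prior. It became 0 in the ordinary linear model, 2 with each array centred on its median and 0 at an adjusted p under 0.01. The count of 0 higher members held in all of these. Of the outside genes, 5 lower became 1, 0 and 1 with every probe set, in the ordinary model and at 0.01, and stayed at 5 with 1 array left out, while 2 higher became 0, 0 and 1, and 2 to 7. The causes were not tested, except that the ordinary model has only 2 residual degrees of freedom and every probe set adds features to the adjustment.

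With 1 array left out, the median difference ran from -0.34 to -0.22 in precursor genes, -0.34 to -0.03 in pan B-lineage genes, -0.37 to -0.03 in later genes, 0.19 to 0.33 in plasma cell genes and -0.34 to -0.03 in all members. Precursor minus later genes ran from -0.22 to 0.01. Among the 59 genes named as members or by the rule for outside lists, no difference changed sign under an alternative that kept all 4 arrays. For members this was nearly fixed in advance and says little about stability. Each had 1 probe set, and these alternatives leave its difference unchanged, apart from a small shift by centring. Dntt, for example, was -0.55 in the main fit and -0.54 with each array centred on its median. With 1 array left out 17 genes changed sign, 12 of them members without LPS replicate 1. Their ranges were -0.09 to 0.07 (Vpreb2), -0.40 to 0.10 (Vpreb3), -0.22 to 0.14 (Il7r), -0.15 to 0.01 (Sox4), -0.34 to 0.09 (Bach2), -0.41 to 0.11 (Cd79a), -0.34 to 0.09 (Cd79b), -0.12 to 0.08 (Syk), -0.35 to 0.08 (Cd22), -0.38 to 0.10 (Cd72), -0.34 to 0.25 (Spib), -0.22 to 0.07 (Bcl6), -0.50 to 0.00 (Cecr2), -0.25 to 0.03 (Akap12), -0.12 to 0.11 (Irf2bp2), -0.04 to 0.10 (Edem1) and -0.24 to 0.23 (Ms4a1). Dntt stayed between -0.61 and -0.49. With 2 arrays a group, differences smaller than the gap between the LPS arrays could not be shown.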
